A study of Caenorhabditis elegans with 54 samples.

Results

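The genes described here are the numbered cuticle collagens of Caenorhabditis elegans, chosen as every row of the deposited count table whose gene symbol is "col-" followed by a number alone. The rule found 156 of the 19909 genes in the table. All libraries came from whole larvae of the mutant daf-2(e1370), which carries a temperature-sensitive allele of the insulin receptor gene and enters dauer diapause when it is shifted to 25 °C. Dauers were sequenced after 1, 4, 15 and 30 days of diapause (D1, D4, D15 and D30), each at 0 h and at 6 and 24 h after exit was induced by a move to food at 15 °C, and L3 larvae of the same strain, the stage that the dauer replaces, were the reference. Irradiated larvae were exposed to UV on dauer day 1 and taken from D1 at 6 and 24 h and from D4 at 0, 6 and 24 h; the dose is not given in the sources used here. Each of the 18 conditions has 3 libraries, which the study describes as biological replicates of 8000 worms, and the daf-2 mutation is shared by every one of them, so none shows the wild type. Food, temperature and hours since induction change together during exit and cannot be told apart.

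The cuticle is the outer coat of the worm and is made largely of short collagens that the epidermis secretes. A new cuticle is made under the old one before each molt, and most collagen genes are transcribed in a burst at that time and are nearly silent between molts. Many collagens are used at every stage, whereas others belong to 1 stage, and the dauer cuticle, which is thick and carries ridges called alae, has collagens of its own. The chains are hydroxylated in the endoplasmic reticulum by prolyl 4-hydroxylase, assembled into helical trimers, trimmed by proteases and cross-linked outside the cell.

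The deposited unit is the estimated count, that is, reads assigned to the transcripts of a gene by Salmon and summed. Library totals ran from 670302 to 12952656 estimated counts with a median of 8457220, and the 3 libraries of irradiated D4 dauers at 0 h were the shallowest of all at 670302 to 856794. Levels below are CPM, counts scaled to a common library total by TMM over the 54 libraries, and are given as mean ± SD of 3 libraries or library by library in the order of the replicate numbers. Levels of different genes are compared only per kb of coding length. Of the 156 members, 148 had at least 10 counts in at least 3 libraries. The other 8 (col-55, col-56, col-78, col-121, col-132, col-135, col-148 and col-152) did not and are called low. The summed level of 6 markers of the epidermis, the tissue that makes the cuticle, was 252 to 288 CPM on D1, 128 to 140.1 on D4, 56.6 to 72.2 on D30 and 1464 to 2206 in L3 larvae. RNA of the 6 yolk protein genes vit-1 to vit-6, which adults make, set some libraries apart. Each of the 6 had counts in some library and none had them in all. Their sum was 678, 507 and 2003 CPM in the D4 libraries at 0 h, 0.343, 154 and 0.338 at 6 h and 0.831, 252 and 1.18 at 24 h, against 0 to 0.548 on D1 and 1.94 to 4.16 in L3. Replicate 3 of D4 at 0 h and replicate 2 of D4 at 24 h were therefore also left out in turn where a result rests on them.

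Numbered collagens were a large share of the RNA of young dauers and almost absent from old ones. Their summed level was 96234, 97588 and 100204 CPM (93243.9, 97984.3 and 96632.8 without TMM) in the 3 libraries of D1 at 0 h. It was 1564, 1555 and 2248 CPM on D4, 403, 383 and 395 on D15 and 199, 199.7 and 198 on D30. The 4 dauer days did not overlap at any step, and each was lower than the one before. L3 larvae held 46741, 52216 and 30433 CPM, below every D1 library and above every later dauer. In exit from D4 the sum reached 15351, 12394 and 12156 CPM at 24 h, whereas in exit from D15 and D30 it was still 378, 463 and 414 and 153, 166 and 151 CPM at that time. In whole larvae, fewer epidermal cells and less collagen RNA per cell cannot be told apart. A small number of genes carried a large share of the signal: the 5 highest members held 51.6 to 52.8% of the sum on D1 and 39.1 to 41.05% in L3.

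Each member was placed in a pattern by the condition, among D1, D4, D15 and D30 at 0 h and L3, in which its mean level was highest. L3 was the highest for 65 members (L3 pattern), D1 for 57 (young-dauer pattern), D4 for 19 (day-4 pattern) and D30 for 7 (day-30 pattern), and no member was highest on D15. The patterns are made from these levels and describe them, so counts by pattern in comparisons of the same libraries are not tests. Taking group medians in place of means moved 6 members to another pattern, and leaving out replicate 1, 2 or 3 of all groups moved 4, 5 and 8. Some features that did not enter the patterns were given by pattern without a test. The median coding length was 939 bases in the young-dauer, 927 in the day-4, 921 in the day-30 and 900 in the L3 pattern. The median number of exons was 3 in the young-dauer and 2 in the other 3 patterns, and chromosome V held 7 of 57 young-dauer and 19 of 65 L3-pattern members. The members lie on all 6 chromosomes of the WBcel235 assembly, 21 on I, 24 on II, 12 on III, 41 on IV, 31 on V and 27 on X. Of 29 pairs of neighbouring members no more than 5000 bases apart, 21 (72.4%) shared a pattern, against 35.6% of all pairs among the 148 members with a pattern. The pairs include col-50 with col-51 (young dauer), col-144 with col-145 and col-145 with col-10 (L3), and the run from col-167 through col-168 and col-169 to col-170 (L3). Neighbours with similar sequences can share reads, as col-3 with col-117 and col-12 with col-13 do, and the part of that was not tested. Close neighbours could also part. col-183 and col-184 lie 1690 bases apart on X, and their means were 6828 and 25.2 CPM on D1 and 188 and 38.4 on D4. On II, col-20 lies between col-17 (2093 bases away) and col-73 (1306 bases away), and these neighbours were at 2293 and 2079.9 CPM in L3 while col-20 was at 0.441 there and at 10.5 on D4.

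**Figure D1:**
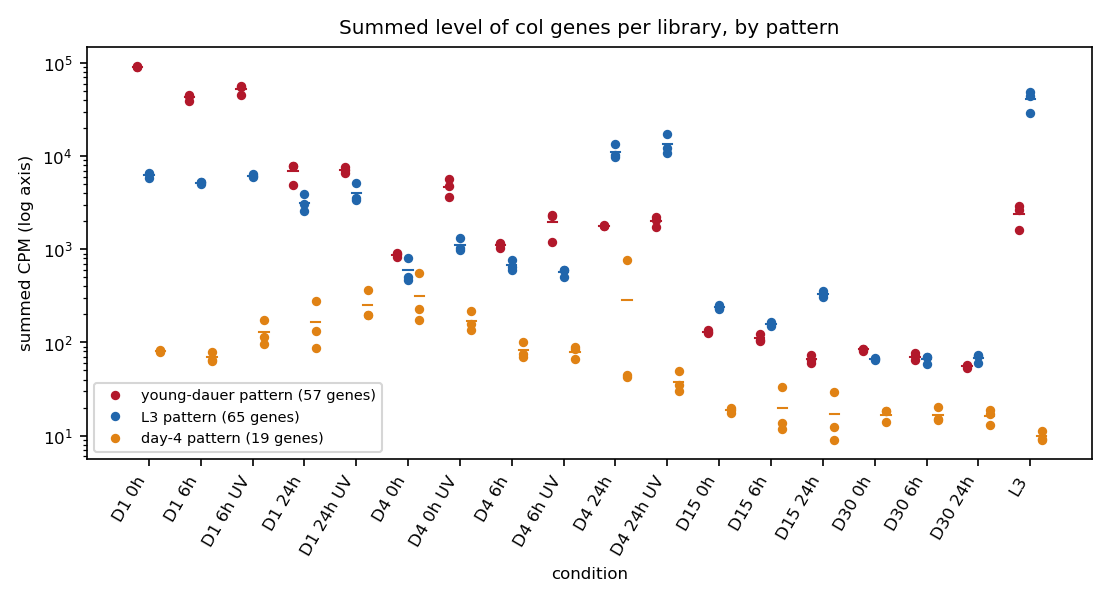
Summed level of the numbered collagens in each of the 54 libraries (CPM, log axis) by condition, for the 57 members of the young-dauer pattern, the 65 of the L3 pattern and the 19 of the day-4 pattern. Points are libraries and bars are means of 3. Young-dauer members lie near 89772, 91619.6 and 93540.2 CPM on D1, whereas L3-pattern members are lower than L3 in every dauer and rise at 24 h of exit from D4.

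**Figure D2:**
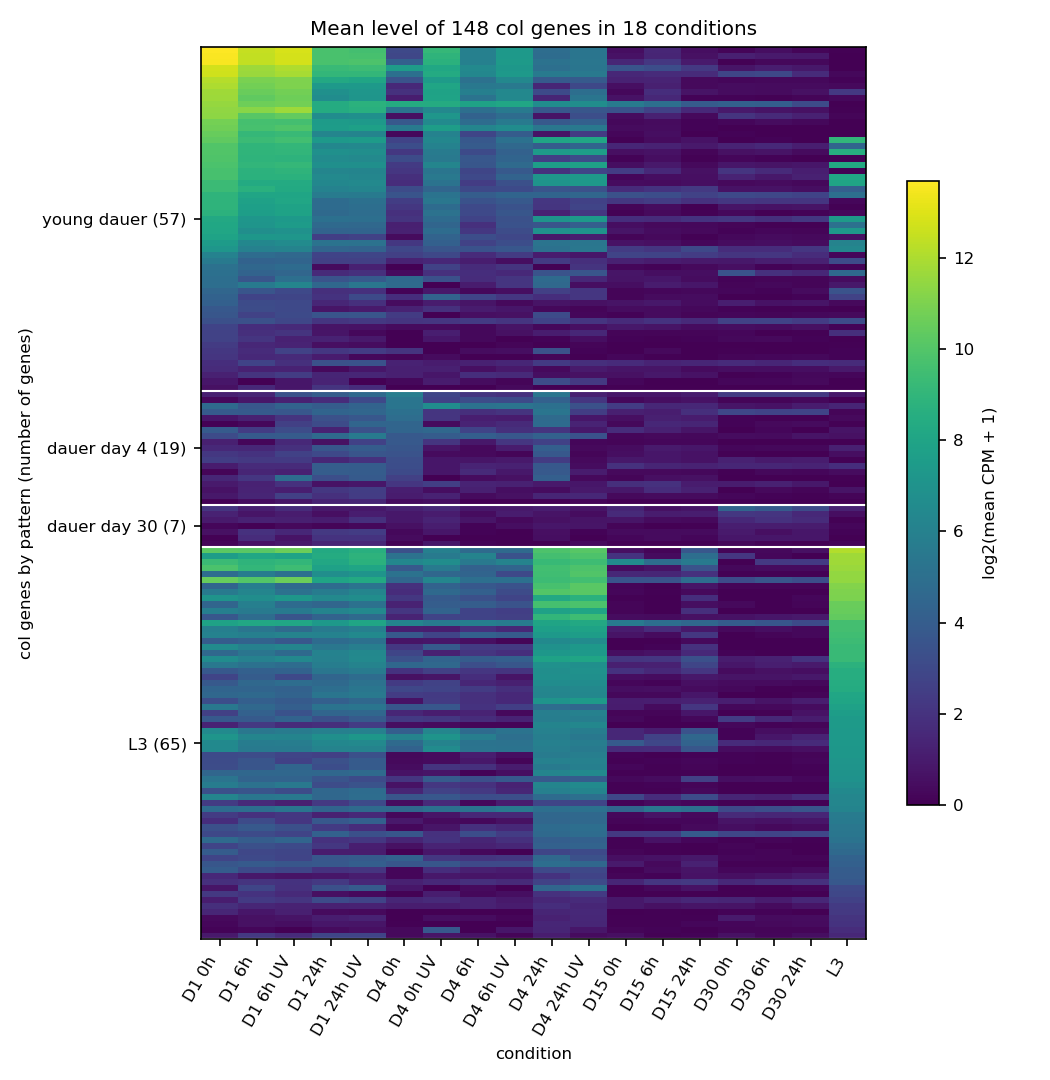
Mean level of the 148 members with enough counts in the 18 conditions, as log2(mean CPM + 1), ordered within each pattern by the level in the condition that defines it. The young-dauer block is bright through exit from D1 and dark from D15 on, and a band of it is bright again at 24 h of exit from D4 and in L3.

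The highest members of the young-dauer pattern were genes known as dauer collagens or their close companions in level. col-2 (chromosome IV, 10084439 to 10085451) is a collagen gene whose transcript is a classical marker of the molt into dauer. It was at 11994, 13124 and 12736 CPM in the D1 libraries, 0.841, 10.4 and 8.23 on D4 and 0, 0 and 0 in L3. col-40 (chromosome II, 1104942 to 1106964), also known as a dauer collagen, was at 11821, 11735 and 12182 CPM on D1, 7.99, 23.3 and 21.2 on D4 and 0, 0 and 0 in L3. The D1 libraries of both genes lay above all others by a wide margin, and L3 had no count in any library. col-37 (chromosome V, 12166706 to 12167753) was as high, with 12901, 13228 and 13362 CPM on D1, 1.89, 9.31 and 9.70 on D4 and 0.120, 0.104 and 0 in L3. Per kb of coding length the D1 means were 13973 CPM for col-2, 13297 for col-37 and 13149 for col-40. The next members were col-183 at 7202 CPM per kb, col-85 at 7047 and col-36 at 4459, so the leading 3 stood apart from the rest.

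The young-dauer pattern held members that L3 larvae lack and members that L3 larvae also use. Of its 57 members, 45 had at least 10 CPM on D1. In L3, 27 of these 45 were under 1 CPM, 15 were at 10 CPM or more and 3 lay between. The 27 included col-2, col-36, col-37, col-40, col-43, col-44, col-50, col-51, col-84, col-85, col-102, col-108 and col-183. The 15 shared members included col-14, at 1291, 1255 and 1317 CPM on D1 and 589, 674 and 296 in L3, and col-173, at 265, 279 and 289 and 157, 156 and 168. For both genes every D1 library lay above every L3 library, but L3 kept a substantial level. On D4 the 27 were at a median of 0.678% of the D1 level and the 15 at 0.505%. At 24 h of exit from D4, a time that did not enter the split, the 27 were at a median of 0.462% of their D1 level and the 15 at 20.3%.

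D1 dauers were compared with L3 larvae, the stage that dauer formation replaces. Of 126 members tested, 116 passed an adjusted p of 0.05 in edgeR's quasi-likelihood test (Benjamini-Hochberg), 58 higher in the dauer and 58 lower, where 75.6% of all 13419 genes tested passed (38.7% higher and 36.9% lower). The median log2 change was -0.09 over the members and 0.04 over all genes, so the family as a whole did not shift in 1 direction. Of the 58 higher members 35 had 10 counts in no L3 library and passed the count minimum through D1 alone, so that they had to differ. Members moved far in both. For the members that L3 lacks, the counts themselves are the measure: col-2 had 0 counts in L3 against 273779 on D1, and col-37 had 2 against 286687. The largest falls were those of col-17, col-54, col-41 and col-125, which were 97.7-fold to 113-fold lower in D1. col-17 was at 15.5, 19.9 and 25.6 CPM on D1 and 2231, 2280.0 and 2368 in L3, a log2 change of -6.78 ± 0.18 (SE, adjusted p = 4.11e-08). col-125 was at 24.7, 33.4 and 28.3 and 3102, 3622 and 1721, a log2 change of -6.59 ± 0.33 (SE, adjusted p = 7.55e-07). No D1 library of either gene came near an L3 library. Without D1 replicate 1, 2 or 3 the calls were 77, 75 and 76, since a gene absent from L3 then has only 2 libraries with counts, fails the minimum of 3, and 90 or 91 members are tested in place of 126.

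**Figure D3:**
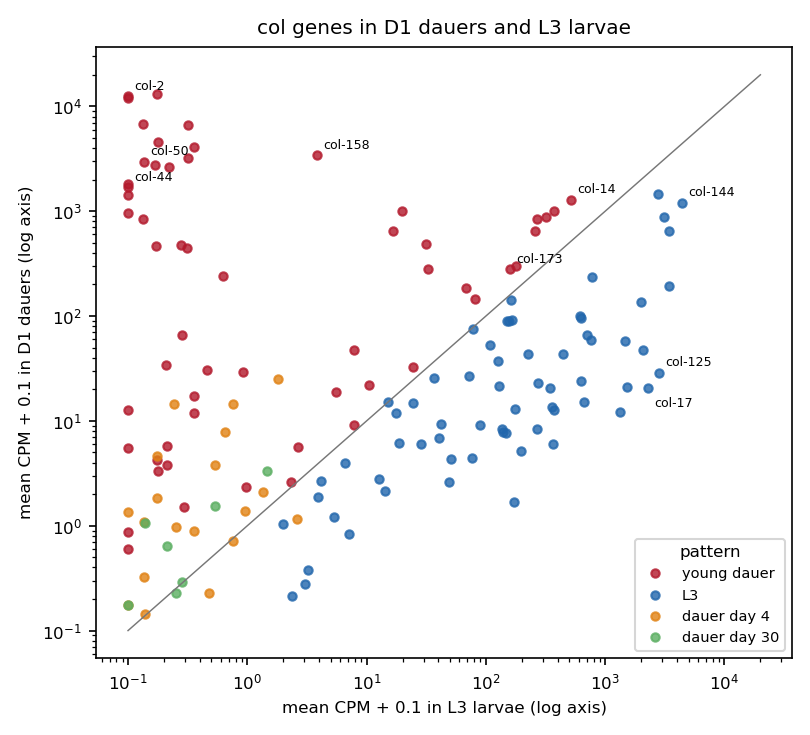
Mean level of each member in D1 dauers at 0 h (vertical) against L3 larvae (horizontal), both as CPM + 0.1 on log axes, coloured by pattern, with the line of equal level. A column of young-dauer members, with col-2 near its top, stands at the left edge with almost no level in L3, apart from the 15 shared members to the right.

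Members of the L3 pattern were read in L3 larvae, the only stage here outside dauer and exit. Their use at other larval stages is not shown. Per kb of coding length the leaders were col-144 at 4989 CPM, col-117 at 3825, col-3 at 3806, col-167 at 3451, col-125 at 3138 and col-166 at 3091. col-144 (chromosome V, 9159586 to 9160642) was at 4954, 5453 and 2793 CPM in L3 and 1331, 1066 and 1231 on D1, so D1 dauers held a sizeable level of it, and it fell to 10.9, 5.54 and 11.5 on D4. col-166 was at 3037, 3476 and 1859.7 CPM in L3 and 1533, 1332 and 1492 on D1. Replicate 3 was the lowest L3 library for col-144, col-166 and col-125. Over the 56 L3-pattern members with at least 10 CPM in L3, the median level was 10.03% of L3 on D1 and 1.07% on D4. col-3 and col-117 are neighbours 587 bases apart with coding regions of the same length (897 bases), and their counts cannot be taken singly. In the irradiated D4 dauers col-3 was at 155, 160.3 and 0 CPM and col-117 at 0, 0 and 146, so each was at 0 where the other was high, while their sum was 146 to 160 CPM in all 3. Only the sum is read for this pair: it was 6845 ± 2031 CPM in L3, 841 ± 76.7 on D1, 114.5 ± 14.9 on D4 and 3.43 ± 0.763 on D30.

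Members with a known stage or role were looked up by name, 20 in all. The adult collagens col-19, col-7 and col-62 were at low levels on D1 and in L3. col-19, the usual marker of the adult cuticle, was at 1.71, 1.10 and 2.42 CPM on D1, 3.16, 1.33 and 10.9 on D4 and 0.120, 0.104 and 0 in L3. It was highest in irradiated D1 larvae at 6 h, with 32.9, 20.7 and 32.0 CPM, and in replicate 2 of D4 at 24 h, where the libraries were at 0, 49.5 and 0.472. col-7 and col-62, also adult collagens, did not exceed a mean of 1.71 and 4.52 CPM in any condition. Of the others listed as adult or L4 to adult, col-38 was at a mean of 2.24 CPM in L3 and rose in the exits from D1 and D4. col-49 and col-63 had no count in L3. col-10, col-13 and col-120 are collagens linked to the long life of adult daf-2 mutants. col-10 was at 140.0, 121 and 148 CPM on D1 and 2179.8, 2544 and 1279 in L3, and col-13 was summed with its tandem duplicate col-12, at 696 ± 318 CPM in L3 and 10.3 ± 4.85 on D4. col-120 stayed at or below a mean of 4.32 CPM throughout. col-99, a transmembrane collagen that acts in axon guidance and is not a cuticle component, was at 2.63, 2.37 and 3.11 CPM on D1 and 12.7, 13.9 and 11.2 in L3. Its mean over the 18 conditions ran from 1.43 to 12.62 CPM.

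From D1 to D4 most members fell. Over the same step the summed level of 6 markers of the body-wall muscle was 11212 to 12548 CPM on D1 and 2644 to 2749 on D4. That of the pharynx markers was 839 to 930.5 and 1789 to 1925, and that of the epidermis markers 252 to 288 and 128 to 140.1. The part of a changed share of tissues in the collagen levels was not tested. The 4 dauer days were fitted together so that each step could be read. Of 132 members tested, 101 fell from D1 to D4 and 18 rose, and the median log2 change was -3.48 against 0.05 over all genes, where 70.1% of genes changed, 34.1% down and 36% up. The steepest falls with counts on both days were in members of the young-dauer pattern. col-84 was at 2512, 2624 and 2846 CPM on D1 and 0.210, 0.222 and 1.03 on D4, a 5463-fold drop with a log2 change of -12.09 ± 0.13 (SE, adjusted p = 3.57e-26). col-43 was at 3003, 3206 and 3536 and 1.68, 1.55 and 0.147, a log2 change of -11.56 ± 0.14 (SE, adjusted p = 2.39e-25). col-36 was at 3930.2, 4053 and 4336 and 2.10, 3.103 and 0.588, with -11.10 ± 0.13 (SE, adjusted p = 1.05e-25). In all 3 genes every D1 library lay far above every D4 library, but the peak on D1 defines their pattern, so these falls are a description. Over the 3 D4 libraries col-84 had 9 counts, col-43 16 and col-36 28. Of these genes, col-84 and col-43 had 10 counts in no D4 library and passed the count minimum through other days of the fit. Members of similar D1 level did not fall alike. col-50 kept 329, 373 and 337 CPM on D4 from 3025, 2875 and 2997 on D1, a log2 change of -3.01 ± 0.053 (SE, adjusted p = 1.94e-22), and col-183 kept 177, 209 and 177 from 6728, 6908 and 6847. Per kb of coding length col-50 and col-84 were at 2365 and 2663 CPM on D1 and at 276 and 0.488 on D4, so members that were alike on D1 were far apart 3 days later.

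The 18 members higher on D4 than on D1 include 15 of the day-4 pattern. The sum of that pattern was highest, at each hour, in the unirradiated D4 replicate with the most yolk protein RNA. col-140 was at 0.919, 1.28 and 1.61 CPM on D1 and 49.4, 30.1 and 86.2 on D4, a log2 change of 5.54 ± 0.36 (SE, adjusted p = 5.92e-12). col-95 was at 0.263, 0.183 and 0.230 and 26.9, 22.6 and 65.7, with 7.42 ± 0.53 (SE, adjusted p = 2.89e-11), and col-122 at 0.788, 1.10 and 0.461 and 25.9, 15.5 and 43.7. The D4 libraries did not overlap those of D1 in these genes, and replicate 3 was the highest in each. Those D4 libraries also define the pattern, so the rises of its members are a description. All 19 members of the pattern were highest in replicate 3 among the D4 libraries at 0 h, the library with the most yolk protein RNA (2003 CPM), and 18 of the 19 were highest in replicate 2 of D4 at 24 h, the library with 252 CPM of it where the other 2 had about 1. In that replicate 17 of 148 members (11.5%) were at least 5 times above both other libraries, 13 of them of the day-4 pattern, against 28 of 15235 genes (0.184%) in all. The part of adult or other RNA in these levels was not tested. Without replicate 3 of D4, 9 members rose in place of 18. Members with few counts on other days, such as col-95 with 3 counts over the D30 libraries, can then miss the minimum of 3 libraries. How much of the drop comes from this was not tested. With D15 in place of D4 only 1 of 121 called members was higher than on D1 and 120 were lower. In that comparison col-140 was at a log2 change of -0.69 (adjusted p = 0.458), and col-181 and col-184, which rose on D4 by 1.30 and 0.74 on the log2 scale, were at -3.49 and -2.52.

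**Figure D4:**
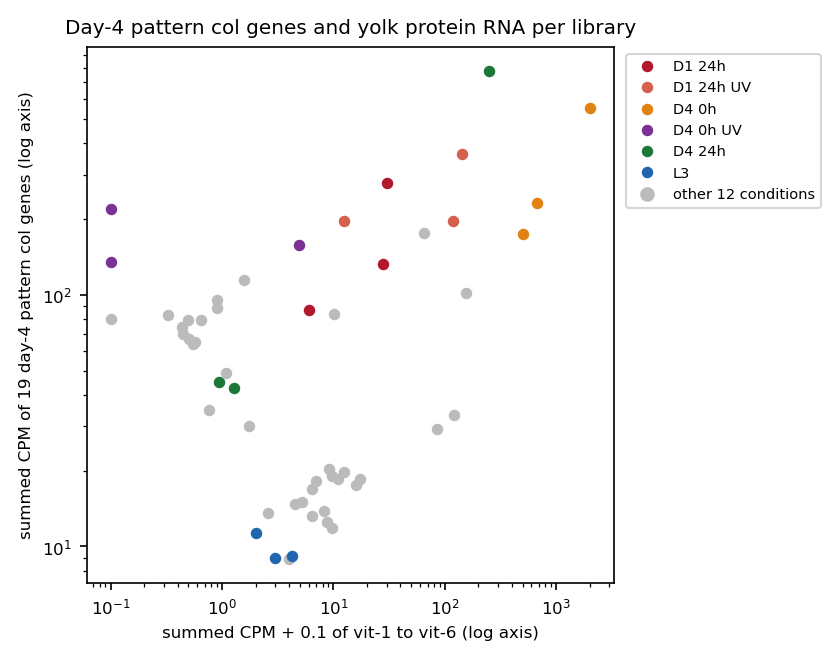
Summed level of the 19 day-4 pattern members (CPM, log axis) against the summed level of the yolk protein genes vit-1 to vit-6 (CPM + 0.1, log axis), 1 point for each of the 54 libraries. Replicate 2 of D4 at 24 h and replicate 3 of D4 at 0 h stand at the upper right, and the other 2 libraries of D4 at 24 h stand near 1 CPM of yolk protein RNA.

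After D4 the remaining collagen RNA kept falling until D15 and then changed less. Of 132 members, 89 fell from D4 to D15 and 2 rose (col-3 and col-64), with a median log2 change of -2.98 against -0.02 over all genes, where 34.4% of genes fell and 31.6% rose. col-44 went from 45.0, 51.4 and 43.1 CPM to 0.250, 0.245 and 0.484, a log2 change of -7.14 ± 0.18 (SE, adjusted p = 1.19e-17). col-169, an L3-pattern member, was at 2.73, 2.88 and 5.15 CPM on D4 and had no count on D15, at least 28.7-fold lower against the highest mean that 3 counts over the group can give. The D4 and D15 libraries did not overlap in either. The D4 libraries enter this step and the previous one with opposite sign, so the steps are not independent. col-3 is read only with col-117, and their sum was 114.5 CPM on D4 and 100.4 on D15. Among the members still measurable on D15 were col-50 at 47.1, 51.6 and 55.7 CPM, col-107 at 55.6, 47.1 and 52.2 and col-76 at 20.99, 17.4 and 24.6.

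From D15 to D30, 30 members fell and 17 rose of 132, with a median log2 change of -0.42, where 28.8% of all genes fell and 28.9% rose. A few collagens were higher in the oldest dauers. col-187 (chromosome X, 16072895 to 16074923) was at 1.25, 2.08 and 1.57 CPM on D15 and 21.8, 21.3 and 21.01 on D30, a log2 change of 3.75 ± 0.19 (SE, adjusted p = 1.37e-13). col-172 was at 0.750, 0.980 and 0.484 and 9.79, 11.1 and 8.91, with 3.77 ± 0.25 (SE, adjusted p = 1.14e-11), and col-84 at 0.250, 0.612 and 0.242 and 3.05, 2.78 and 3.79. In each of the 3 genes all D30 libraries lay above all D15 libraries. col-187 was also above D1 on D30, where D1 had 2.63, 4.02 and 3.11 CPM, whereas col-172 and col-84 were below it. The other 6 members of the day-30 pattern (col-60, col-63, col-64, col-74, col-88 and col-175) were at a mean of 3.62 CPM or less on D30. Fitted as a straight line over dauer day, the study's own model of dauer aging, 113 of 132 members fell and 3 rose, where 31.8% of genes fell and 24.9% rose.

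Collagen RNA fell over exit from D1, and it also fell in dauers that stayed in diapause until D4. No library was taken 24 h after D1 without exit, so exit and time since D1 cannot be told apart. Over the 0, 6 and 24 h of exit from D1, 71 of 139 members fell and 29 rose in a fit of log2 level on hour (median log2 change over 24 h -0.997, all genes -0.01), where 31.4% of genes fell and 31% rose (61.9% in all). The epidermis markers were at 252 to 288 CPM at 0 h and 116 to 145 at 24 h, and their part was not tested. The 45 young-dauer members were at a median of 47.7% of their 0 h level at 6 h and 9.02% at 24 h. col-43 was at 3003, 3206 and 3536 CPM at 0 h, 1229, 1337 and 1394 at 6 h and 92.8, 88.1 and 121 at 24 h, a fitted log2 change of -4.93 ± 0.13 (SE, adjusted p = 8.27e-10). col-123 fell the most, from 219, 249 and 256 to 135, 153 and 170.3 and 4.69, 3.68 and 5.78 (-5.63 ± 0.38 SE, adjusted p = 2.02e-07). No library of a later hour reached an earlier one in these 2 genes. The pace differed between members: at 6 h the share kept ran from 30.1% (col-141) to 162% (col-178), and at 24 h from 0.982% (col-163) to 90.9% (col-81). col-108 was at 2898, 2583 and 2795 CPM at 0 h, 2319.5, 2421 and 2494 at 6 h and 374, 282 and 374 at 24 h, so most of its fall came after 6 h, whereas col-2 was at 4698, 5733 and 5873 at 6 h and 1028, 550.2 and 989 at 24 h. The time course of the L3-pattern members was mixed, with 16 higher and 18 lower of 62, and their median level at 24 h was 8.68% of L3, not above the 10.03% at 0 h. col-125 rose from 24.7, 33.4 and 28.3 CPM to 137, 85.5 and 106 at 24 h (1.84 ± 0.20 SE, adjusted p = 1.20e-05) and col-39 from 11.7, 14.97 and 11.4 to 59.8, 26.0 and 35.5 (1.75 ± 0.25 SE, adjusted p = 1.04e-04). At 24 h col-125 was still far from its 2815 CPM in L3. The largest rise with enough counts was that of col-129, a day-4 pattern member, from 0.919, 0.913 and 1.38 to 28.0, 6.41 and 11.02 CPM, in libraries that held 5.999 to 30.1 CPM of yolk protein RNA against 0 to 0.548 at 0 h. Without replicate 1 of D1 at 24 h, 17 members rose in place of 29.

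Exit from D4 was a rise. Of 117 members tested, 66 rose and 6 fell over 24 h, with a median log2 change of 2.03 against -0.04 over all genes, where 22.6% of genes rose and 21% fell. In the same libraries the epidermis markers were at 128 to 140.1 CPM at 0 h and 807 to 925 at 24 h. The intestine markers were at 1425 to 1593 and 5263 to 5788, and their part in the rise was not tested. In the L3 pattern 51 of 58 rose and none fell at an adjusted p of 0.05. Some risers passed the count minimum through 24 h alone and so could only rise. Among them, col-54 had 8 counts over the 0 h libraries and 1 over those of 6 h. How many did so was not counted, so the numbers of risers and the median are a description. col-73 was at 1.47, 0.665 and 4.70 CPM at 0 h, 13.7, 29.2 and 8.45 at 6 h and 1023, 913 and 1155 at 24 h, 452-fold higher at the end (8.32 ± 0.49 SE, adjusted p = 7.47e-07). col-90 went from 0.841, 0.443 and 3.23 to 14.1, 25.4 and 7.44 and 792, 735 and 856 (8.21 ± 0.51 SE, adjusted p = 9.95e-07), and col-41 from 0.421, 1.33 and 3.09 to 3.77, 9.73 and 4.06 and 546, 453 and 528 (8.33 ± 0.38 SE, adjusted p = 1.33e-07). Every 24 h library lay above every earlier one in the 3 genes. The 6 that fell were of the young-dauer and day-4 patterns: col-50, for example, went from 329, 373 and 337 CPM to 103, 93.5 and 108 (-1.75 ± 0.092 SE, adjusted p = 3.71e-07) and col-183 from 177, 209 and 177 to 16.6, 47.8 and 30.22 (-2.45 ± 0.32 SE, adjusted p = 2.02e-04). The call of col-101 (log2 change -2.63, adjusted p = 0.0470) was lost without any 1 of 6 libraries, replicate 3 at 0 h among them (adjusted p = 0.169). Without replicate 2 of D4 at 24 h, the library with yolk protein RNA, 50 members rose and 15 fell. Hour by hour, 35 of 84 members were higher and 19 lower at 6 h against 0 h alone, where 2868 of 11765 genes were higher and 2652 lower. At 24 h against 0 h alone, 75 of 113 members were higher and 6 lower, where 4142 of 12517 genes were higher and 3767 lower.

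The exits from D1 and D4 differed when the difference itself was tested. An interaction of day and hour was past the threshold for 91 of 141 members, 87 with the higher slope in exit from D4 and 4 with the lower, where 23.7% of all genes had a higher and 21.7% a lower slope. Of the 116 members tested in both exits, 29 fell from D1 and rose from D4, 14 rose in both, 5 fell in both (col-50, col-101, col-108, col-151 and col-183) and none rose from D1 and fell from D4. The widest differences were in shared members of the young-dauer pattern and in col-65. col-173 went from 265, 279 and 289 to 18.5, 13.6 and 26.6 CPM in exit from D1 and from 1.26, 1.33 and 1.62 to 121, 111 and 126 in exit from D4, a difference of slopes over 24 h of 10.19 ± 0.32 on the log2 scale (SE, adjusted p = 4.32e-14). col-104 went from 664, 652 and 642 to 92.2, 53.4 and 90.5 and from 3.79, 0.665 and 2.50 to 162, 96.5 and 151 (9.06 ± 0.41 SE, adjusted p = 4.28e-12). These genes fell in every library of the first exit and rose in every library of the second, from start to end. Without replicate 2 of D4 at 24 h, 17 members had the lower slope in exit from D4 in place of 4.

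In exit from D15 and D30 the summed level at 24 h stayed below that of every library at 24 h of exit from D4. In exit from D15, 58 members could be tested, and 19 rose and 9 fell, where 42.3% of all genes changed, 22.4% up and 19.9% down. Of the risers 18 were of the L3 pattern. Some passed the count minimum through 24 h alone, such as col-10, with 1 count over the 0 h libraries and 74 over those of 24 h. Yolk protein RNA was at 120.3, 9.58 and 2.49 CPM at 6 h and 3.88, 85.5 and 8.67 at 24 h, and the summed day-4 pattern was likewise highest in replicate 1 at 6 h (33.4, 11.8 and 13.6) and in replicate 2 at 24 h (8.92, 29.3 and 12.5). col-176 went from 2.25, 2.08 and 1.33 CPM at 0 h to 5.05, 4.20 and 7.59 at 6 h and 23.4, 19.3 and 25.2 at 24 h (3.28 ± 0.29 SE, adjusted p = 1.35e-05), and col-42 from 2.50, 2.69 and 1.45 to 9.60, 12.7 and 13.003 (2.70 ± 0.33 SE, adjusted p = 1.20e-04). The 24 h libraries lay above the others in both, but the 56 L3-pattern members were at a median of only 0.373% of their L3 level, against 34.1% at 24 h of exit from D4. Leaving out replicate 2 or 3 of D15 at 24 h left 11 and 12 risers. col-117 also passed as higher, but the sum of the pair col-3 and col-117 was 100.4 CPM at 0 h and 77.5 at 24 h. Of 20 members of the young-dauer pattern tested, 6 fell and 1 rose (col-34, from 4.87, 2.82 and 5.08 to 4.94, 8.11 and 7.13 CPM, adjusted p = 0.0481). The falls included col-50, from 47.1, 51.6 and 55.7 to 11.6, 16.01 and 15.1 CPM (-1.71 ± 0.16 SE, adjusted p = 2.39e-05) and col-183 from 11.5, 10.04 and 10.4 to 4.07, 4.54 and 2.98 (-1.40 ± 0.17 SE, adjusted p = 1.35e-04).

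In exit from D30, 44 members could be tested, and 3 rose (col-76, col-154 and col-176) and 10 fell, where 24.6% of all genes rose and 22.2% fell. col-76 went from 5.89, 8.21 and 7.28 to 12.4, 12.3 and 8.70 CPM (0.61 ± 0.17 SE, adjusted p = 0.00867). col-187, the member highest in the oldest dauers, went from 21.8, 21.3 and 21.01 CPM at 0 h to 12.59, 14.3 and 15.8 at 6 h and 5.96, 7.76 and 9.90 at 24 h (-1.38 ± 0.16 SE, adjusted p = 1.53e-05). The groups at 0 and 24 h did not overlap in either gene. The L3-pattern members were at a median of 0.114% of their L3 level at 24 h. Without replicate 1 of D30 at 6 h, 5 members rose in place of 3. How the exits from D15 and D30 differ from that of D4 was not tested here.

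At 24 h of exit from D4 the larvae were compared with L3 to see how far the collagen program stood from the reference stage. Of 102 members tested, 58 were lower and 17 higher than in L3, with a median log2 change of -1.01 against -0.000322 over all genes, where 60.2% of genes differed, 30.1% lower and 30% higher. col-91 was at 6.93, 6.68 and 4.96 CPM at 24 h and 89.0, 97.6 and 40.4 in L3 (-3.48 ± 0.40 SE, adjusted p = 1.70e-04). col-170 was at 96.2, 85.3 and 87.6 and 771, 869 and 344 (-2.75 ± 0.32 SE, adjusted p = 1.99e-04). The groups did not overlap in either. Dauer collagens that L3 larvae lack were among the 17 higher members, of which 13 had 10 counts in no L3 library and so passed the count minimum through D4 at 24 h alone. col-44 was at 42.1, 39.6 and 43.7 CPM and had no count in L3, at least 348-fold higher by the same floor of 3 counts, and col-40 was at 7.76, 53.4 and 41.1 against none, at least 284-fold higher. Leaving out replicate 1, 2 or 3 of D4 at 24 h lowered the 17 to 4, 3 and 4 and the calls to 51, 48 and 47, since genes absent from L3 then miss the minimum of 3 libraries and 88 members are tested.

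D4 dauers that had been irradiated on day 1 held more collagen RNA than unirradiated ones. Irradiated D4 dauers at 0 h held 7221, 5909 and 4863 CPM of numbered collagens against 1564, 1555 and 2248 in unirradiated ones. Of 81 members tested, 48 were higher and 11 lower, with a median log2 change of 1.48 against -0.04 over all genes, where 32.5% of genes differed, 18.1% higher and 14.4% lower. Markers of several tissues moved too: those of the epidermis were at 155 to 226 CPM with UV and 128 to 140.1 without, of the germline at 284 to 310.3 and 512 to 539 and of the pharynx at 1327 to 1461 and 1789 to 1925, and those of the dauer state at 2669 to 3397 and 1967 to 2106. The part of these shifts was not tested. In the young-dauer pattern, which the unirradiated D4 libraries helped to define, 31 of 37 were higher and 2 lower. Of the 48 higher members 3 (col-43, col-84 and col-102) had 10 counts in no unirradiated library. They passed the count minimum through the irradiated group alone and are given as a description. col-84 was at 0.210, 0.222 and 1.03 CPM without and 177, 189 and 76.1 with UV (8.03 ± 0.44 SE, adjusted p = 3.27e-08). col-43 was at 1.68, 1.55 and 0.147 and 285, 287 and 155 (7.95 ± 0.35 SE, adjusted p = 6.77e-09), and col-36 at 2.10, 3.103 and 0.588 and 338, 284 and 164 (7.28 ± 0.34 SE, adjusted p = 8.04e-09). The irradiated libraries lay above all unirradiated ones in the 3 genes and far below D1, where the 45 young-dauer members stood at 100% by definition: their median was 6.20% of the D1 level with UV and 0.678% without. The response was uneven. col-50, which kept more RNA on D4 than its companions, was at 329, 373 and 337 CPM without and 329.7, 352 and 348 with UV (0.065 ± 0.076 SE, adjusted p = 0.557), and these groups overlapped. col-14, which L3 larvae also use, was at 9.05, 3.99 and 4.26 and 94.8, 86.6 and 58.0 (3.90 ± 0.28 SE, adjusted p = 3.27e-07).

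The 11 members lower after UV on D4 are given as a description: 10 of them had 10 counts in no irradiated library and passed the count minimum through the unirradiated group alone, and 7 were of the day-4 pattern, which those libraries define. col-122 was at 25.9, 15.5 and 43.7 CPM without and 2.06, 7.76 and 0 with UV (-3.14 ± 0.74 SE, adjusted p = 0.00566), and col-181 at 18.1, 17.7 and 59.7 and 1.03, 5.17 and 3.63 (-3.32 ± 0.94 SE, adjusted p = 0.0158). col-178, of the young-dauer pattern, was at 22.3, 14.4 and 39.4 CPM without UV and had no count with it, at least 19.6-fold lower by the same floor of 3 counts. The unirradiated D4 libraries held 507 to 2003 CPM of yolk protein RNA and the irradiated ones 0 to 4.83, and its part in these falls was not tested. Leaving out any 1 of the unirradiated libraries left 1 lower member in place of 11, since genes under 10 counts after UV then miss the minimum of 3 libraries. The call of col-181 was lost without irradiated replicate 1 (adjusted p = 0.0876) or 3 (adjusted p = 0.0601).

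**Figure D5:**
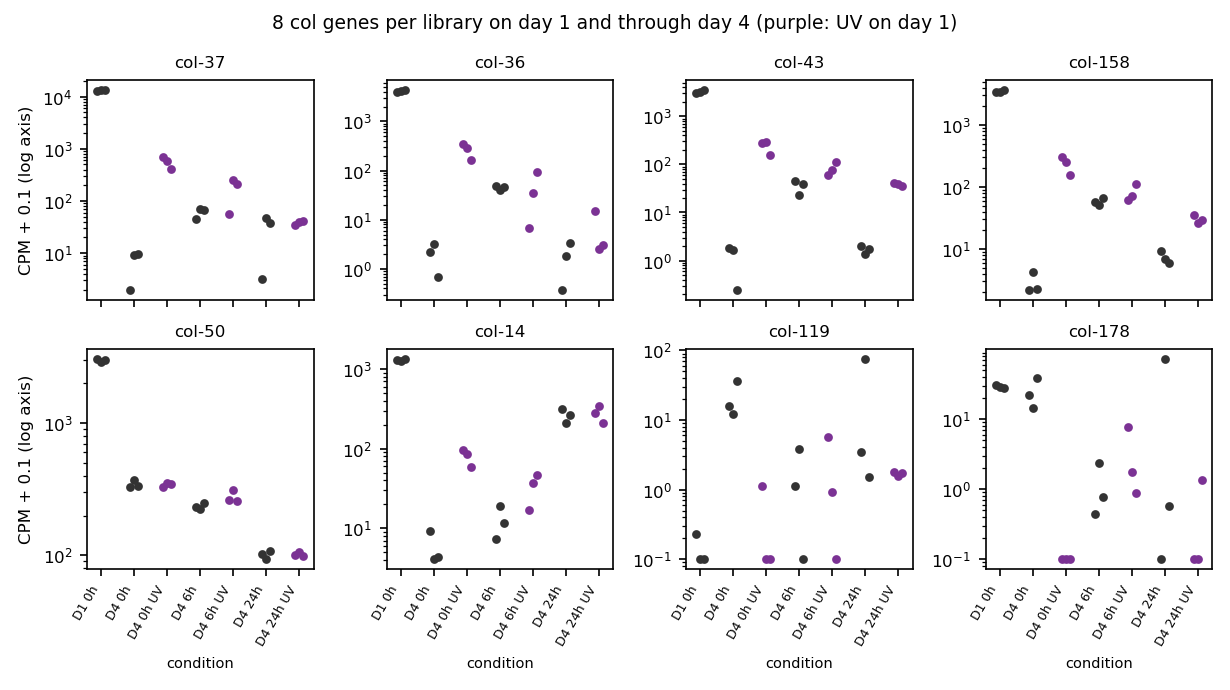
Level of 8 members (CPM + 0.1, log axes) in each library of D1 at 0 h and of D4 at 0, 6 and 24 h, without UV (black) and with UV on day 1 (purple). For col-37, col-36, col-43 and col-158 the irradiated D4 dauers lie between D1 and unirradiated D4, whereas col-50 shows no gap and col-119 and col-178 lie lower with UV.

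Fewer members differed with UV once exit had begun. At 6 h of exit from D4, 4 of 68 members were higher after UV (col-183, col-85, col-43 and col-51) and 2 lower (col-125 and col-176), where 0.936% of all genes were higher and 0.441% lower. col-43 was at 44.6, 22.8 and 38.9 CPM without and 59.8, 74.7 and 114 with UV (1.19 ± 0.25 SE, adjusted p = 0.0444), and col-85 at 76.4, 92.1 and 70.0 and 104, 211 and 165 (1.03 ± 0.21 SE, adjusted p = 0.0372). The libraries with and without UV were apart in both genes, and for col-43 the log2 change was 1.19 against 7.95 at 0 h. These calls rest on few libraries: without unirradiated replicate 1, 2 or 3 they numbered 0, 0 and 1, and without irradiated replicate 1, 2 or 3 they numbered 12, 0 and 10. Without UV, the mean of col-43 was 1.13 CPM at 0 h and 35.4 at 6 h and that of col-36 1.93 and 44.4, and the libraries of these 2 times did not overlap. At 24 h, 3 of 99 members were higher after UV (col-43, col-84 and col-158) and none lower, where 0.126% of genes were higher and 0.00838% lower. Of the 3, col-43 and col-84 had 10 counts in no unirradiated library and passed the count minimum through the irradiated group alone. col-43 was at 1.94, 1.29 and 1.65 CPM without and 41.6, 39.9 and 34.7 with UV (4.58 ± 0.20 SE, adjusted p = 8.85e-08), and col-158 at 9.15, 6.89 and 5.90 and 35.3, 26.0 and 28.9 (2.05 ± 0.19 SE, adjusted p = 3.08e-04). Both genes were apart between the groups in every library, whereas col-37 and col-85, which were higher than both on D1, were at 3.05, 46.1 and 38.01 against 34.6, 39.2 and 42.1 and 24.9, 65.9 and 51.0 against 43.9, 50.6 and 42.9 CPM. Without any 1 irradiated library 1 call was left. Whether the UV effect differed between the hours was not tested.

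In exit from D1, taken directly after irradiation, UV went with smaller and mixed differences. At 6 h 30 of 136 members were higher and 16 lower, where 14.4% of genes were higher and 13.4% lower, and the median log2 change was 0.05. The falls included members of the L3 pattern. col-41 was at 30.21, 25.02 and 28.6 CPM without and 5.37, 9.80 and 18.4 with UV, against 8.80, 12.96 and 14.1 at 0 h (-1.37 ± 0.27 SE, adjusted p = 0.00322). col-17 was at 54.2, 54.2 and 55.5 and 13.3, 17.7 and 41.9, against 15.5, 19.9 and 25.6 at 0 h (-1.21 ± 0.28 SE, adjusted p = 0.00728). In both genes the irradiated libraries lay below all unirradiated ones of 6 h, and replicate 3 was the highest irradiated library. col-90 was likewise lower, at -1.23 (adjusted p = 0.0136), but DESeq2 gave adjusted p values of 0.136 for col-90 and 0.0811 for col-17. The largest rise was that of the adult collagen col-19, from 3.78, 3.93 and 2.65 to 32.9, 20.7 and 32.0 CPM (3.05 ± 0.21 SE, adjusted p = 1.41e-06). The irradiated D1 libraries at 6 h held 1.47, 0.797 and 65.5 CPM of yolk protein RNA. Without unirradiated replicate 2 or irradiated replicate 1 the calls were 30 and 28 in place of 46. The number lower was 10, 9 and 8 without unirradiated replicate 1, 2 or 3 and 6 and 31 without irradiated replicate 1 or 3, and the number higher was 47 without irradiated replicate 2. At 24 h, 11 of 129 members were higher and 3 lower, where 5.54% of genes were higher and 6.13% lower. Yolk protein RNA was at 118.97, 12.4 and 143 CPM in the irradiated libraries and 30.1, 5.999 and 28.0 in the others, and the summed day-4 pattern at 196, 196 and 363 and 278, 87.3 and 133. Its part was not tested. col-107 was at 170.3, 159.5 and 169 CPM without and 224, 248 and 313 with UV (0.63 ± 0.10 SE, adjusted p = 0.00171) and col-153 at 18.1, 18.8 and 16.8 and 9.11, 8.56 and 10.1 (-0.98 ± 0.12 SE, adjusted p = 2.61e-04). Without irradiated replicate 3 of this time 8 calls were made in place of 14, 6 of them higher. Without unirradiated replicate 1 the number higher was 17, and without unirradiated replicate 2 the number lower was 13.

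The other genes of the cuticle were counted from lists of names. Body-shape collagens (dpy, sqt, rol, lon, bli and ram genes) are those whose mutants have an altered shape or surface, and 21 of the 22 listed were analysed here. Of 17 tested between D1 and L3, 15 were lower in the dauer and 1 higher, where 36.9% of all genes were lower and 38.7% higher. dpy-5 was at 36.04 ± 10.9 CPM on D1 and 2457 ± 104 in L3 (SD, n = 3), and rol-8, the 1 that was higher, was at 2715 ± 165 and 1073 ± 181. From D1 to D4, 17 of 19 fell and 2 rose, and in exit from D4, 15 of 17 rose and none fell, with a median log2 change of 6.495. Of all genes, 34.1% fell and 36% rose in the first comparison and 21% fell and 22.6% rose in the second. sqt-3, a collagen made at every molt, went from 6.08 ± 2.35 CPM on D4 to 871 ± 18.1 at 24 h of exit. At 6 h of exit from D1, 13 of 19 were lower after UV and none higher at an adjusted p of 0.05 in edgeR, where 13.4% of all genes were lower and 14.4% higher. The epidermis markers were at 190.1 to 232 CPM with UV and 243 to 256 without, and their part was not tested. In D4 dauers after UV, 4 of 7 were higher and 1 lower, where 18.1% of all genes were higher and 14.4% lower.

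Genes listed for the making and cross-linking of collagen, both enzymes and other factors, followed part of this course. Of 17 tested between D1 and D4, 10 fell and 2 rose (34.1% and 36% of all genes), and in exit from D4, 12 of 17 rose and 1 fell (22.6% and 21% of all genes). phy-2, a catalytic subunit of prolyl 4-hydroxylase, was at 139 ± 14.2 CPM on D1, 15.7 ± 1.76 on D4, 122 ± 1.99 at 24 h of exit and 302 ± 63.3 in L3 (SD, n = 3). bli-3, the dual oxidase that cross-links tyrosines of the cuticle, was at 573 ± 14.8 CPM on D1, 105 ± 3.83 on D4 and 170.2 ± 9.19 in L3. Its level in D1 dauers was thus above L3, while that of phy-2 was below. After UV, 10 of 16 genes of this list were higher in D4 dauers and none lower, where 18.1% and 14.4% of all genes were. For phy-2 the log2 change was 1.54 ± 0.18 (SE, adjusted p = 2.81e-05). Of 18 regulators of the cuticle and the molt, 11 were lower and 4 higher on D1 than in L3, where 36.9% and 38.7% of all genes were. From D1 to D4, 9 fell and 2 rose, where 34.1% and 36% of all genes did. bed-3, a transcription factor of the molting cycle, went from 44.5 ± 4.18 CPM on D1 to 4.52 ± 0.499 on D4 and 36.01 ± 0.823 at 24 h of exit. The 3 collagens of the basement membrane, which are no cuticle genes, fell from D1 to D4 and rose in exit from D4 as well (emb-9 at 1071 ± 20.5, 169 ± 13.1 and 563 ± 25.6 CPM).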

How the data were processed

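RNA of whole daf-2(e1370) larvae was sequenced in 54 libraries, 3 for each of 18 conditions, and the sample labels gave each library its condition. Reads were cleaned with fastp and quantified by the authors with Salmon (WBPS15 transcripts, genome sequence as decoy), and tximport gave gene totals, deposited as estimated counts without scaling for library size. In each library 8.49% to 64.7% of these deposited estimated counts hold decimals, since reads of similar genes are divided, and all were rounded to the nearest whole number for the fits. The L3 growth temperature for these libraries and the UV dose are not given in the sources used here.

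A gene was tested where 3 or more libraries of the comparison had 10 or more counts. All such genes of the table were fitted with edgeR 4.0.16 (glmQLFit and glmQLFTest, two-sided, TMM) in R 4.3.3, with Benjamini-Hochberg adjustment over all of them and a threshold of 0.05. Exit changes are slopes on hour over 0, 6 and 24 h scaled to 24 h, and dauer days were fitted as categories and as a slope. A log2 change is that of the fit, and a fold is the ratio of mean CPM. Where a group had no count, the fold is a bound against the highest mean CPM (TMM scale) that 3 counts over that group can give. Library totals were 670302 to 12952656 counts (median 8457220), lowest in irradiated D4 dauers at 0 h. Positions and coding lengths are from Ensembl release 115 (WBcel235), in which all 156 members were found. Python 3.11.15 with pandas 2.3.3 and matplotlib 3.10.9 served for tables and figures.

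The members and lists were chosen with earlier results of these data known. Named members are the 6 highest of each pattern per kb of coding length, up to 4 rises and 4 falls per comparison (past the threshold, mean count 50 or more, extreme groups apart), and 20 of 21 genes listed for a known stage or role (col-6 was not analysed here). The others that are named (col-20, col-60, col-64, col-74, col-81, col-88, col-141, col-145, col-151, col-154, col-168, col-175 and the 8 low members) were added after their values were seen. Alternatives were RLE size factors, filterByExpr or no filter, DESeq2 1.42.0, a block for the replicate number, 1 fit of all 54 libraries, an adjusted p under 0.01, group medians, single exit hours and each library left out. The comparison of D15 in place of D4 was chosen after seeing the data. The fits were tested on simulated data.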

Additional observations from a re-analysis of the deposited data

Results flagged for a closer look

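A difference between the exits from D4 and D1 was the one comparison of effects that was tested as such, and 91 members passed it by an interaction of day and hour in edgeR. The widest differences in log2 change over 24 h, exit from D4 minus exit from D1, were those of col-173 (10.19), col-65 (9.25), col-104 (9.06) and col-48 (9.02). col-65 went from 50.9, 51.5 and 55.1 to 9.38, 5.999 and 9.23 CPM in exit from D1 and from 0.210, 0.887 and 0.588 to 80.9, 56.2 and 84.1 in exit from D4 (adjusted p = 6.62e-13). col-48 went from 857, 816 and 834 to 99.5, 55.9 and 98.1 and from 3.79, 1.99 and 2.06 to 165, 124 and 147 CPM (adjusted p = 2.41e-12). The starting levels of the 2 exits differ, and their part in these slopes was not tested.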

How the results depend on the processing

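Of 290 alternative counts of calls or members of a pattern and summed levels, 259 were close to the reported value (counts within 1.5 times) and 31 moved. Of 1561 alternatives for members named in a comparison, 1483 kept direction and side of the threshold, 74 lost the threshold and 4 changed sign. These 4 were col-140 (-0.69), col-181 (-3.49) and col-184 (-2.52) from D1 to D15 in place of D4, chosen after seeing the data, and col-117 at 6 h alone in exit from D15 (-3.10), a gene read only with col-3. The cause was not tested. Leaving out 1 library gave 75 to 118 calls for D1 against L3, 47 to 88 for D4 at 24 h against L3, 0 to 12 for UV at 6 h and 1 to 4 at 24 h of exit from D4, and 28 to 64 and 8 to 21 for UV at 6 and 24 h of exit from D1. With an adjusted p under 0.01 the UV calls were 0 at 6 h of exit from D4 and 25 and 7 at 6 and 24 h of exit from D1. Without a filter they were 14 and 6 at 6 and 24 h of exit from D4. With all 54 libraries in 1 fit they were 6 at 24 h of exit from D4 and 19 at 6 h of exit from D1, and D4 at 24 h against L3 gave 114. Exit from D30 gave 6 calls at 6 h alone. CPM without TMM gave summed levels of 95954 on D1, 2021 on D4 at 6 h, 359.9 on D15 and 183 on D30. The L3 libraries moved further than these groups, to 36043, 38733 and 23123 from 46741, 52216 and 30433 with TMM. Levels given as a percentage of L3 use the TMM scale. RLE size factors moved the median of all genes by -0.04 to 0.02 (log2). Same-numbered replicates were not shown to be paired. With the replicate number as a block, UV at 6 h of exit from D4 gave 11 calls in place of 6, and the other counts of calls stayed within 1.5 times.

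In comparisons of groups the p-values measure the spread of libraries within groups of 3. The steps between dauer days share the spread of all days in the fit. In slopes on hour or dauer day, and in the difference of slopes, the spread also holds departures from a straight line. Totals as low as 670302 counts in irradiated D4 dauers leave members of low level untested there. Yolk protein RNA in some libraries of D4, of exit from D15 and of irradiated D1 larvae at 6 h moves with the day-4 pattern. In irradiated D1 larvae at 24 h, replicates 1 and 2 held 118.97 and 12.4 CPM of yolk protein RNA. Both held 196 CPM of the day-4 pattern. Irradiated D4 dauers at 0 h held 134 to 219 CPM of that pattern with 0 to 4.83 CPM of yolk protein RNA. Members with similar sequences share reads, as col-3 with col-117 and col-12 with col-13 do.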
